A study of Mus musculus with 167 samples.

Results

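Of the 35 hCD2.SII libraries of this mouse series, which also holds other lines and factor sets, 7 were compared here. They were chosen by their titles and comprise 3 of YFP+CD45+ cells (replicates 1 to 3) and 4 of YFP+ cells (replicates 1 to 4), both named hCD2.SII and taken 9 days after transduction. All 7 came from mouse embryonic fibroblasts (hCD2.MEF), which were heterozygous for hCD2(Cre/WT) and for Rosa26 (YFP/WT) on a C57BL/6 background and carried Spib, Irf8 and Ikzf2 (SII) on lentivirus. Live (DAPI-) cells were sorted either for YFP and CD45 together or for YFP, and RNA of 5000 cells was read as counts per gene. YFP marks a cell in which Cre from the hCD2 construct has at some time been active, so the reporter does not show that Cre is active at the sort. The labels do not say how many embryos gave the fibroblasts, whether replicates were separate cultures, or whether CD45+ cells were kept out of the YFP+ gate, so the p-values measure the spread between these libraries, which may be technical.

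Spi-B is an ETS-family transcription factor closely related to PU.1, IRF8 is an interferon regulatory factor that binds composite ETS-IRF elements with PU.1 or Spi-B, and Helios, the product of Ikzf2, is a zinc-finger factor of the Ikaros family. Spi-B and IRF8 are both known for their part in plasmacytoid dendritic cells (pDC), which sense nucleic acids through endosomal Toll-like receptors and release type I interferon. CD45, the product of Ptprc, is a receptor tyrosine phosphatase carried by nearly all blood cells other than mature red cells and platelets, and fibroblasts lack it. Ptprc was the sort marker and its difference is therefore no finding.

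The transduced factors were several-fold higher in every YFP+CD45+ library than in every YFP+ library, and they were not equal among the YFP+CD45+ libraries. Spib stood at 53.8, 147.3 and 175 CPM (read counts scaled to an equal library total) in YFP+CD45+ replicates 1 to 3, against 12.4, 11.7, 11.7 and 12.4 CPM in YFP+ replicates 1 to 4. Irf8 stood at 128.4, 320.4 and 320.2 CPM, against 28.3, 28.4, 27.9 and 28.4 CPM, and Ikzf2 at 378, 955 and 1042 CPM, against 73.9, 84.8, 77.3 and 72.8 CPM. Replicate 1 thus held clearly less of each factor than replicates 2 and 3, while the YFP+ libraries were nearly alike. The factor level, the mean of the log2 CPM of Spib, Irf8 and Ikzf2, averaged 8.08 ± 0.83 in YFP+CD45+ libraries and 4.91 ± 0.024 in YFP+ libraries (SD, n = 3 and 4). The difference of 3.17 on the log2 scale had a two-sided exact permutation p of 0.0571, the smallest that 3 against 4 libraries allow. Reads of the lentiviral copies and of the cells' own Spib, Irf8 and Ikzf2 genes cannot be told apart in these counts. Ptprc stood at 71.2, 228 and 271 CPM in YFP+CD45+ libraries, against 0.535, 0.626, 0.518 and 0.450 CPM in YFP+ libraries, and was lowest in the YFP+CD45+ library with the least factor. The libraries fell into separate clusters by gate on the factor level, so no correlation of factor level and Ptprc was computed.

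A second difference between these libraries does not follow from the gate. Xist, the RNA that coats the inactive X chromosome, stood at 144.4, 0.897 and 3.40 CPM in YFP+CD45+ replicates 1 to 3, against 127.2, 101.6, 79.6 and 67.1 CPM in YFP+ libraries, and Ddx3y, a gene of the Y chromosome, at 33.96, 73.7 and 78.5 CPM, against 31.8, 38.8, 38.5 and 40.3 CPM. YFP+CD45+ replicate 1 resembled the YFP+ libraries in both, and replicates 2 and 3 had almost no Xist and more Ddx3y. Of all 35 hCD2.SII libraries, 11 held at most 6.94 CPM of Xist and at least 62.7 CPM of Ddx3y, and the other 24 at least 36.99 CPM of Xist and at most 48.1 CPM of Ddx3y. No YFP+ library of day 9 was in the first class, so for YFP+CD45+ replicates 2 and 3 the gate and the Xist class cannot be told apart. The counts below are therefore given for all 7 libraries and also with the Xist class (under or over 10 CPM) as a term, an alternative added after the data were seen, in which the gate difference rests on YFP+CD45+ replicate 1 against the 4 YFP+ libraries and replicate 1 is assumed to vary like the others. Its calls take in no spread between YFP+CD45+ replicate 1 and replicates 2 and 3, and so describe that 1 library. Library totals ran from 5886834 to 10393099 counts in YFP+CD45+ and from 8885100 to 13092670 in YFP+ libraries.

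**Figure D1:**
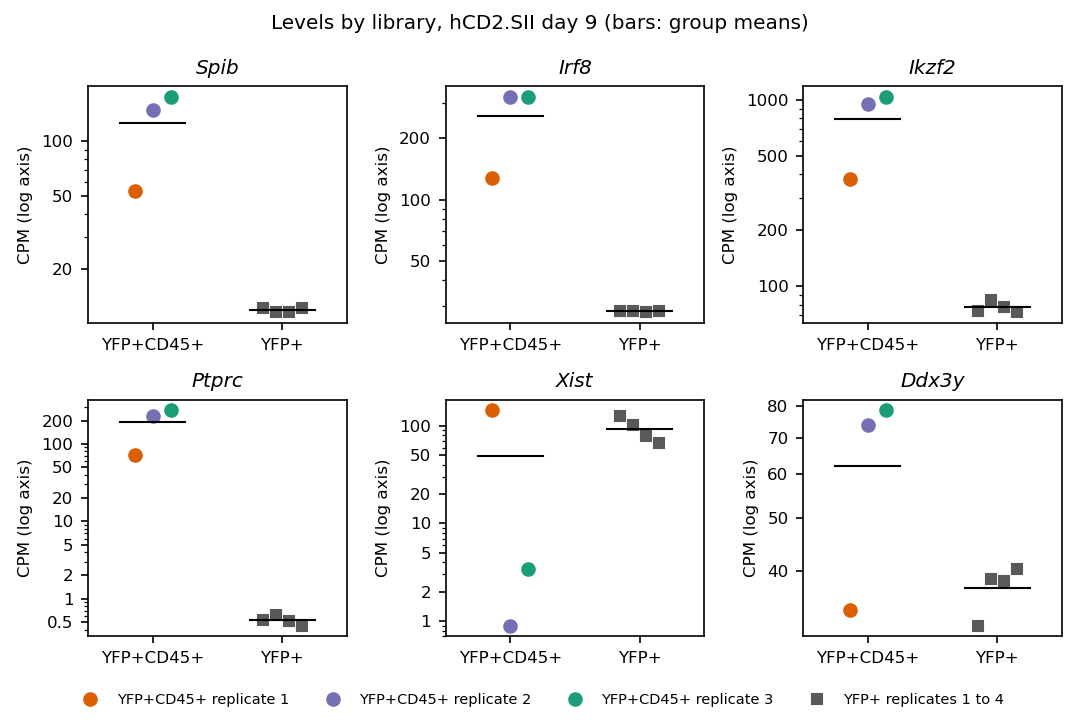
Levels in CPM (log axes) of the 3 transduced factors, of Ptprc and of Xist and Ddx3y in the 3 YFP+CD45+ libraries (circles, 1 colour per replicate) and the 4 YFP+ libraries (squares), with bars at the group means. YFP+CD45+ replicate 1 lies between the other 2 and the YFP+ libraries for the factors and Ptprc, and among or near the YFP+ libraries for Xist and Ddx3y.

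Across the genome, genes of blood cells rose with the gate and genes of proliferation fell. Of 16173 genes that passed a filter on low counts, 1306 were higher in YFP+CD45+ than in YFP+ libraries (8.08%) and 668 lower (4.13%), at an adjusted p under 0.05 and at least a 2-fold difference (edgeR, Benjamini-Hochberg). With the Xist class as a term, 538 were higher (3.33%) and 329 lower (2.03%), 5.36% in all. Without YFP+CD45+ replicate 1, 2571 were higher (15%) and 2363 lower (13.8%). The place of replicate 1 was counted for the genes called without it. These genes were chosen for a gap between replicates 2 and 3 and the YFP+ libraries. A place within that gap was therefore favoured beforehand, and no expected share was computed. Of 1927 higher ones among the 16173, replicate 1 lay strictly between the 2 sets of libraries for 1304 (67.7%). It lay within or below the YFP+ range for 502, and at or above replicates 2 and 3 for the rest. Of 2336 lower ones it lay strictly between for 1574 (67.4%), within or above the YFP+ range for 636, and at or below replicates 2 and 3 for the rest. In such sorted bulk RNA, fewer cells that express a gene and less of its RNA per cell cannot be told apart.

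Receptors of myeloid cells rose in YFP+CD45+ libraries. Of 22 listed myeloid signalling and inhibitory receptors, 18 passed the filter, 13 were higher and none lower, with a median log2 fold change of 3.13 against 0.0203 over all genes tested. With the Xist class as a term 12 were higher and none lower (median 1.81). Pirb, which carries inhibitory motifs and binds MHC class I, stood at 140.96, 384 and 472 CPM in YFP+CD45+ libraries, against 5.96, 8.13, 7.42 and 5.18 CPM in YFP+ libraries, a log2 fold change of 5.65 ± 0.45, adjusted p = 0.0012, and of 4.40 ± 0.14 with the Xist class. Its activating relative Pira2 stood at 30.1, 206 and 212 CPM, against 1.53, 1.16, 1.98 and 0.338 CPM (log2 fold change 6.85 ± 0.88, adjusted p = 0.00485). Lilrb4a, another inhibitory receptor, stood at 182, 588 and 656 CPM, against 21.9, 19.5, 12.9 and 15.98 CPM (log2 fold change 4.77 ± 0.48, adjusted p = 0.00196). Fcgr3, a low-affinity receptor for IgG, stood at 34.6, 181 and 217 CPM, against 1.91, 1.25, 1.81 and 1.80 CPM (log2 fold change 6.41 ± 0.72, adjusted p = 0.00311). In all 4 genes replicate 1 was the lowest YFP+CD45+ library. It was still above every YFP+ library, but this was a condition for naming genes from a list. Pira2, Pirb and Lilrb4a belong to families of near-identical copies, so the share of reads given to each is uncertain. Clec5a, a C-type lectin-like receptor, stood at 2.89, 37.8 and 22.4 CPM, against 0.153, 0.0894, 0 and 0.225 CPM (log2 fold change 7.40 ± 1.17, adjusted p = 0.00732). Clec5a signals through the adaptor encoded by Tyrobp and Fcgr3 through the chain encoded by Fcer1g, and both adaptors were near 0. Tyrobp stood at 0, 0.150 and 0 CPM in YFP+CD45+ libraries, against 0.0764, 0.0894, 0 and 0 CPM in YFP+ libraries, and Fcer1g at 0, 0.299 and 0 CPM, against 0.0764, 0.179, 0.0863 and 0 CPM. Both fell below the filter and were not tested.

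Genes that blood cells of many kinds share rose as well. Of 22 pan-leukocyte genes, 16 passed the filter, 12 were higher and none lower, and with the Xist class 10 were higher and none lower. Vav1, a guanine nucleotide exchange factor of antigen receptor signalling, stood at 22.3, 58.5 and 60.3 CPM in YFP+CD45+ libraries, against 0.764, 2.06, 1.73 and 1.01 CPM in YFP+ libraries (log2 fold change 5.08 ± 0.47, adjusted p = 0.00133). Hcls1, a cortactin relative that binds actin in blood cells, stood at 6.25, 29.6 and 29.9 CPM, against 0.458, 0.536, 0.345 and 0.113 CPM (log2 fold change 5.81 ± 0.69, adjusted p = 0.00247). Coro1a, which organises the actin cortex of leukocytes, stood at 15.7, 57.7 and 59.6 CPM, against 2.21, 1.70, 2.85 and 2.25 CPM (log2 fold change 4.30 ± 0.50, adjusted p = 0.00242). The genes with the largest log2 fold changes among those of at least 10 CPM also included Cfp, the complement factor properdin, at 64.9, 300.2 and 305 CPM, against 2.21, 3.31, 3.54 and 1.24 CPM (log2 fold change 6.43 ± 0.69, adjusted p = 0.00278). Myo1f, a myosin of blood cells, stood at 22.9, 93.01 and 98.9 CPM, against 0.687, 1.52, 1.47 and 0.900 CPM (log2 fold change 5.96 ± 0.62, adjusted p = 0.00219). In each of these genes replicate 1 was below replicates 2 and 3. It lay above the YFP+ libraries, which was a condition for naming genes from a list.

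Some dendritic cell markers rose. Of 12 pDC markers 5 passed the filter, of which 3 were higher and none lower, also with the Xist class. The 3 were Klra17, Tlr9 and Blnk. Without replicate 1, 3 pDC markers were higher and 1 was lower. The 12 pDC markers summed to 194 to 319 CPM in YFP+CD45+ and to 277 to 305 CPM in YFP+ libraries. Of the 12, 7 stayed under 1 CPM in every library. Klra17, a lectin-like receptor found on pDC, stood at 10.6, 28.7 and 31.3 CPM in YFP+CD45+ libraries, against 1.30, 1.25, 1.04 and 0.788 CPM in YFP+ libraries (log2 fold change 4.39 ± 0.41, adjusted p = 0.00108). Tlr9, the receptor for unmethylated DNA, stood at 4.52, 6.13 and 9.003 CPM, against 0.382, 0.894, 0.518 and 0.563 CPM (log2 fold change 3.45 ± 0.37, adjusted p = 0.00132). Blnk, an adaptor of B-cell receptor signalling, stood at 2.31, 7.48 and 10.9 CPM, against 0.993, 0.715, 0.690 and 0.675 CPM (log2 fold change 3.11 ± 0.51, adjusted p = 0.00482). Bst2, a pDC surface marker that interferon also induces in other cells, did not pass the test, at 147.98, 25.1 and 19.9 CPM, against 173, 149.96, 170.1 and 157.3 CPM (log2 fold change -1.32 ± 0.73, adjusted p = 0.217), and YFP+CD45+ replicate 1 lay far from replicates 2 and 3. Of 11 markers of conventional dendritic cells of type 2 (cDC2), 5 passed the filter and all 5 were higher, 4 of them with the Xist class. Itgam, which encodes CD11b, stood at 46.3, 149.97 and 197 CPM, against 7.03, 6.35, 6.04 and 3.83 CPM (log2 fold change 4.49 ± 0.52, adjusted p = 0.00309). Clec12a, an inhibitory lectin, stood at 39.4, 62.5 and 54.9 CPM, against 2.67, 3.84, 2.93 and 2.25 CPM (log2 fold change 4.16 ± 0.22, adjusted p = 8.94e-05). Cd209a, a lectin of the DC-SIGN family, stood at 3.46, 4.93 and 6.79 CPM and had no count in any YFP+ library, so that it was at least 75.6-fold higher against the level of 3 counts over all 4 YFP+ libraries. Of 12 markers of conventional dendritic cells of type 1 (cDC1), 9 passed the filter, 5 were higher and none lower, and 3 were higher with the Xist class. Clec9a, which binds actin of dead cells, stood at 1.15, 7.33 and 7.64 CPM, against 0, 0.0894, 0.0863 and 0 CPM, and Id2, an inhibitor of helix-loop-helix factors, at 69.9, 174 and 163.8 CPM, against 45.3, 42.9, 44.7 and 42.8 CPM (log2 fold change 1.64 ± 0.29, adjusted p = 0.00777). Without replicate 1, 5 cDC1 markers were higher and 1 was lower. Itgax, which encodes the dendritic cell integrin CD11c, stood at 1.35, 9.87 and 12.9 CPM, against 0.458, 0.179, 0.345 and 0.338 CPM (log2 fold change 4.52 ± 0.79, adjusted p = 0.00725).

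Among 22 haematopoietic transcription factors, 18 passed the filter, 8 were higher and none lower, and with the Xist class 5 were higher and none lower. Irf5, which acts downstream of Toll-like receptors, stood at 60.2, 157.002 and 143.2 CPM in YFP+CD45+ libraries, against 13.4, 12.4, 14.3 and 13.8 CPM in YFP+ libraries (log2 fold change 3.16 ± 0.32, adjusted p = 0.00158). Lyl1, a helix-loop-helix factor of blood progenitors, stood at 7.50, 7.78 and 8.83 CPM, against 0.917, 1.25, 0.863 and 0.675 CPM (log2 fold change 3.10 ± 0.25, adjusted p = 0.000574). Irf5 was lower in replicate 1 than in replicates 2 and 3, while Lyl1 was nearly equal in the 3 YFP+CD45+ libraries. Of 12 genes of the Toll-like receptor list 8 passed the filter, 3 were higher and 1 was lower, and with the Xist class 3 were higher and none lower. The lower one was Tlr5, the flagellin receptor, at 2.50, 1.64 and 2.38 CPM, against 3.67, 5.005, 4.92 and 4.16 CPM (log2 fold change -1.002 ± 0.25, adjusted p = 0.0217). Unc93b1, which carries endosomal Toll-like receptors to their compartment, stood at 102.6, 115.4 and 102.1 CPM, against 43.9, 41.8, 43.3 and 40.97 CPM (log2 fold change 1.34 ± 0.09, adjusted p = 0.000321), again nearly equal within the gate. For MHC class II, 5 of 9 genes passed the filter and 2 were higher, or 3 with the Xist class. Cd74, the invariant chain, stood at 27.6, 66.99 and 63.02 CPM, against 3.90, 2.50, 1.98 and 1.58 CPM (log2 fold change 4.38 ± 0.41, adjusted p = 0.00133). Ctss, the protease that trims it, stood at 14.6, 21.8 and 24.1 CPM, against 4.28, 4.11, 3.97 and 4.16 CPM (log2 fold change 2.29 ± 0.19, adjusted p = 0.000719). For MHC class I presentation, 1 of 14 genes was higher and none lower, none passed with the Xist class, and 1 was higher and 3 lower without replicate 1. The higher one was Psmb9, an immunoproteasome subunit, at 6.25, 12.4 and 16.3 CPM, against 5.88, 4.29, 4.92 and 5.40 CPM (log2 fold change 1.18 ± 0.30, adjusted p = 0.0231), and B2m, the light chain, stood at 1177, 451 and 383 CPM, against 1079, 1055, 1075 and 1090.1 CPM (log2 fold change -0.67 ± 0.38, adjusted p = 0.216). Of 17 lysosomal genes tested, from 18 listed, 3 were higher and none lower, and 2 were higher with the Xist class. The cathepsin gene Ctsh stood at 66.8, 130.4 and 107.7 CPM, against 16.9, 11.98, 13.97 and 13.1 CPM (log2 fold change 2.87 ± 0.23, adjusted p = 0.000719). Among macrophage and monocyte markers 5 of 12 passed the filter, 2 were higher and none lower, and with the Xist class 1 was higher. Cd68, an endosomal glycoprotein, stood at 12.03, 31.3 and 30.4 CPM, against 3.44, 3.66, 3.97 and 4.50 CPM (log2 fold change 2.66 ± 0.33, adjusted p = 0.002). Of all genes tested, 8.08% were higher and 4.13% lower over all 7 libraries, and 15% and 13.8% without replicate 1. The 1 higher gene of 14 for MHC class I presentation thus lay near the share of all genes.

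Sequences before the start sites of the genes that rose were searched for letters to which the factors' families are known to bind. The windows were RefSeq promoters of build GRCm38.p6, from 250 bases before to 50 after a start site, and were at hand for 10731 of the 16173 genes. GAGGAAGT, the core of a PU.1 and Spi-B site, was found on either strand for 6.51% of the 784 higher genes with a window, for 2.29% of the 437 lower ones and for 3.58% of all. Among genes at least 4-fold higher the share was 9.22% of 282. The composite ETS-IRF element, read as GGAA and GAAA with 2 bases of any kind between them, was found for 4.46% of higher, 2.29% of lower and 2.84% of all genes, and TGGGAA, the core of the Ikaros family, for 26.8%, 29.98% and 26.9%. The interferon-stimulated response element, read as GAAA and GAAA with 2 bases of any kind between them, was found for 3.70% of higher, 5.26% of lower and 3.82% of all genes, and in 12 of 21 interferon-stimulated genes with a window. The composite and the response element can share bases, and a match is a run of letters and not a shown site. The windows of Pirb and Vav1, which rose, and of Fgd2, an exchange factor that stood at 13.5, 30.7 and 48.1 CPM in YFP+CD45+ libraries, against 0.611, 0.804, 0.259 and 0.225 CPM in YFP+ libraries (log2 fold change 5.94 ± 0.57, adjusted p = 0.00137), are printed because they hold the core, with GAGGAAGT or its reverse complement in capitals, and that of the interferon-stimulated gene Oas3 with the response element in capitals, each 5′ to 3′ on its gene's strand.
Pirb, chr7:3720333-3720632, minus strand: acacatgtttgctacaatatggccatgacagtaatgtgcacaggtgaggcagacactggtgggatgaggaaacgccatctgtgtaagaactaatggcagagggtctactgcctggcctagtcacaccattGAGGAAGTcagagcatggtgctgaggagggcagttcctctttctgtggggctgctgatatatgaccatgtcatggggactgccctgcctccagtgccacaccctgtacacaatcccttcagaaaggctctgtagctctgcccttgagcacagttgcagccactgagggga
Vav1, chr17:57278850-57279149, plus strand: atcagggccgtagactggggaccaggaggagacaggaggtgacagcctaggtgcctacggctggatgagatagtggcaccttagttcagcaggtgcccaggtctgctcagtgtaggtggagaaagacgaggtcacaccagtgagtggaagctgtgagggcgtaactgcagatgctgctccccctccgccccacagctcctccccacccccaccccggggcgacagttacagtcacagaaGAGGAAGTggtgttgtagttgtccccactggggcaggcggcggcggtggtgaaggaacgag
Fgd2, chr17:29360664-29360963, plus strand: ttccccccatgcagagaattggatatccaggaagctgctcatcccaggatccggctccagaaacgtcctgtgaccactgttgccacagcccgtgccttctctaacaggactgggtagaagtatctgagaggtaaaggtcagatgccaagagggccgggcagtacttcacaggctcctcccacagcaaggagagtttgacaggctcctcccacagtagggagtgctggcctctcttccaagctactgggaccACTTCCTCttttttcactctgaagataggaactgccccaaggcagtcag
Oas3, chr5:120777610-120777909, minus strand: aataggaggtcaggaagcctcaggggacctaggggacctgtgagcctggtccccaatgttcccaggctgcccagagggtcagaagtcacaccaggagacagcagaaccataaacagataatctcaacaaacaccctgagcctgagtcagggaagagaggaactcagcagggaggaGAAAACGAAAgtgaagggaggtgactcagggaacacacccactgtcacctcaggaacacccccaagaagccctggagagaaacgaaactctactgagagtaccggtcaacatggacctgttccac
In Pirb the match starts 120 bases before the start site, in Vav1 it starts 11 bases before it, in Fgd2 it lies on the reverse strand just after it, and in Oas3 it starts 75 bases before it.

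Genes of the cell cycle fell in all 3 YFP+CD45+ libraries. Over all genes tested, 4.13% were lower, and 13.8% without replicate 1. Of 20 S phase genes, all tested, 15 were lower and none higher, and 12 were lower with the Xist class. Of 20 genes of G2 and M phase 13 were lower and none higher, and all 20 were lower with the Xist class and also without replicate 1. Mki67, the proliferation antigen Ki-67, stood at 39.5, 4.04 and 9.85 CPM in YFP+CD45+ libraries, against 129.7, 159.5, 153.6 and 137.4 CPM in YFP+ libraries (log2 fold change -2.98 ± 0.75, adjusted p = 0.0318), and fell by 1.87 on the log2 scale with the Xist class. Top2a, the topoisomerase of dividing cells, stood at 25.3, 2.84 and 2.55 CPM, against 72.6, 84.3, 86.7 and 94.2 CPM (log2 fold change -2.96 ± 0.83, adjusted p = 0.0435). Mcm5, a subunit of the replicative helicase, stood at 4.52, 1.05 and 2.72 CPM, against 19.1, 16.9, 20.3 and 19.4 CPM (log2 fold change -2.70 ± 0.36, adjusted p = 0.00238). Nuf2, a kinetochore protein, stood at 3.27, 0.449 and 0.340 CPM, against 13.8, 15.1, 14.8 and 16.3 CPM (log2 fold change -3.25 ± 0.57, adjusted p = 0.00749). Replicates 2 and 3 were lower than replicate 1 in each of these genes. No YFP+CD45+ library reached the YFP+ range, which was a condition for naming genes from a list.

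Of 19 genes of cholesterol synthesis 8 were lower and none higher, and 2 were lower with the Xist class. Idi1, an isomerase of the mevalonate pathway, stood at 7.79, 2.84 and 4.08 CPM in YFP+CD45+ libraries, against 23.1, 22.9, 20.9 and 27.7 CPM in YFP+ libraries (log2 fold change -2.21 ± 0.30, adjusted p = 0.00257), and the sterol demethylase gene Cyp51 at 15.97, 7.63 and 8.66 CPM, against 32.9, 38.7, 39.2 and 38.3 CPM (log2 fold change -1.76 ± 0.24, adjusted p = 0.00262). Of 13 contractile genes 3 were lower and none higher, 4 were lower with the Xist class and 9 without replicate 1. Cnn1, the calponin of smooth muscle, stood at 6.45, 1.94 and 1.36 CPM, against 16.6, 17.1, 25.9 and 19.1 CPM (log2 fold change -2.48 ± 0.47, adjusted p = 0.0101). Acta2, smooth muscle actin, did not pass the test in all 7 libraries at 369, 15.7 and 6.96 CPM, against 903, 905, 1057 and 1031 CPM (log2 fold change -2.88 ± 1.38, adjusted p = 0.163). Replicate 1 lay far from replicates 2 and 3, and with the Xist class, where replicate 1 stands alone, the fold change of Acta2 was -1.39 ± 0.23.

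For fibroblast, interferon and chemokine genes, too, the counts depended on YFP+CD45+ replicate 1. Of 19 fibroblast genes tested, from 20 listed, 1 was higher and none lower over all 7 libraries, 1 was higher and 2 lower with the Xist class, and 1 was higher and 17 lower without replicate 1. Col1a1, a chain of type I collagen, stood at 2801, 145.9 and 101.8 CPM in YFP+CD45+ libraries, against 3638, 4258, 4179 and 4222 CPM in YFP+ libraries (log2 fold change -1.99 ± 1.21, adjusted p = 0.253). Pdgfra, a growth factor receptor of fibroblasts, stood at 184, 7.92 and 10.9 CPM, against 369, 385, 424 and 375 CPM (log2 fold change -2.50 ± 1.16, adjusted p = 0.152). Lum, the proteoglycan lumican, stood at 92.9, 1.05 and 0.340 CPM, against 184, 185, 203 and 206 CPM (log2 fold change -2.59 ± 1.52, adjusted p = 0.238). In each of the 3 genes replicates 2 and 3 held a small share of the level in replicate 1. Fn1, fibronectin, was the single fibroblast gene that rose, at 25436, 35867 and 33153 CPM, against 11649.6, 12860.5, 12762 and 11393 CPM (log2 fold change 1.39 ± 0.14, adjusted p = 0.00107). With the Xist class, where replicate 1 stands alone, its log2 fold change was 1.07.

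Of 28 interferon-stimulated genes, all tested, 1 was lower and none higher over all 7 libraries, none passed with the Xist class, and 24 were lower without replicate 1. Of all genes tested, 8.08% were higher and 4.13% lower over all 7 libraries, and 15% and 13.8% without replicate 1. The 1 lower of 28 thus lay near the share of all genes. The median level of the 28 genes relative to the mean of the YFP+ libraries was -0.37 on the log2 scale in replicate 1. It was -3.52 in replicate 2 and -3.50 in replicate 3. Oasl2, a relative of the oligoadenylate synthetases, stood at 118.8, 1.79 and 2.04 CPM in YFP+CD45+ libraries, against 174, 169, 166.7 and 153.6 CPM in YFP+ libraries (log2 fold change -1.99 ± 1.38, adjusted p = 0.309). Oas3, a synthetase and the member called lower, stood at 7.89, 2.69 and 3.40 CPM, against 10.2, 13.2, 11.4 and 11.4 CPM (log2 fold change -1.24 ± 0.33, adjusted p = 0.0263). Irf7, which amplifies interferon production, stood at 202, 68.9 and 62.9 CPM, against 172, 145.6, 171 and 162.5 CPM (log2 fold change -0.53 ± 0.42, adjusted p = 0.359). For Irf7 replicate 1 lay above, and replicates 2 and 3 below, every YFP+ library. Of 15 cytokine and chemokine genes tested, from 23 listed, 2 were lower and none higher over all 7 libraries, 1 was lower with the Xist class, and 1 was higher and 12 lower without replicate 1. Ccl5 stood at 4.04, 2.09 and 0.340 CPM, against 9.93, 10.1, 8.45 and 9.68 CPM (log2 fold change -2.02 ± 0.49, adjusted p = 0.0203). Ccl2 stood at 464, 170.5 and 133.5 CPM, against 566, 549.6, 582 and 589 CPM (log2 fold change -1.15 ± 0.42, adjusted p = 0.0834); both are chemokines that attract leukocytes. The part of the Xist class and of the factor level in the place of replicates 2 and 3 cannot be told apart within these libraries.

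**Figure D2:**
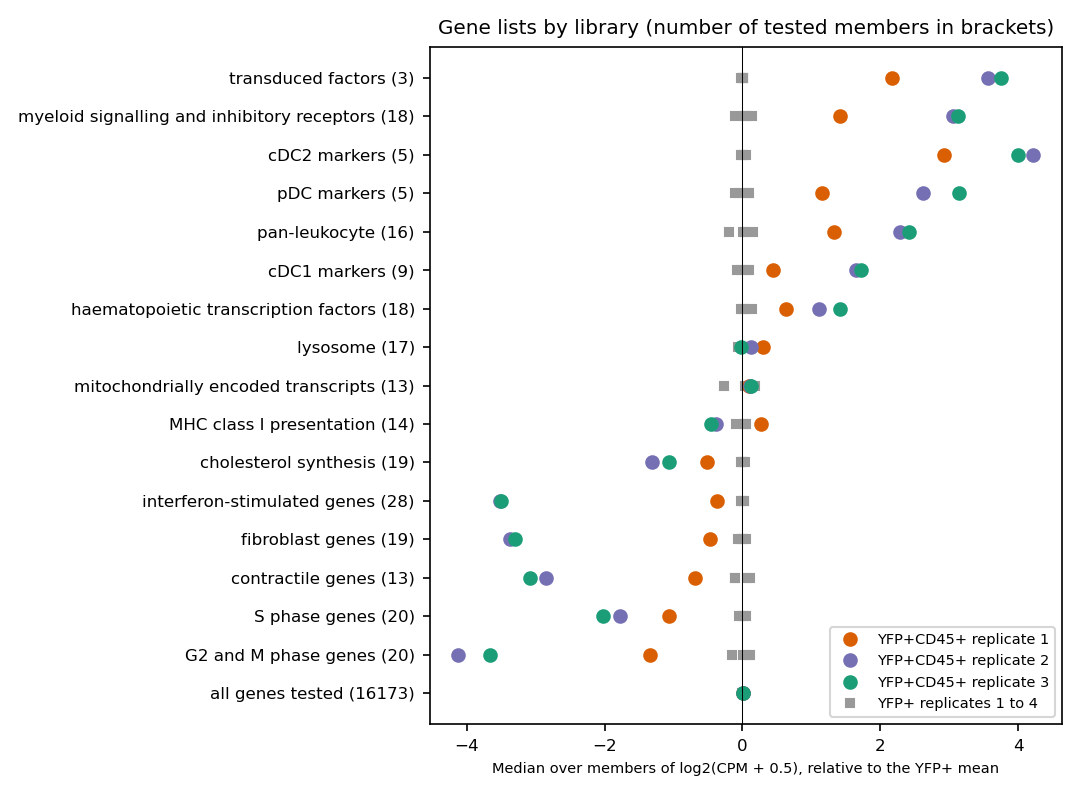
Median over the tested members of each gene list of log2(CPM + 0.5), relative to the mean of the 4 YFP+ libraries, with 1 circle per YFP+CD45+ library and grey squares for the YFP+ libraries. The lists of myeloid receptors, pan-leukocyte genes and pDC, cDC1 and cDC2 markers lie to the right in all 3 YFP+CD45+ libraries. The S phase and G2 and M phase lists lie to the left in all 3. Interferon-stimulated genes are at -0.37 in replicate 1 and at -3.52 and -3.50 in replicates 2 and 3.

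Markers of other cells stood at low levels for some lists and not for others. The summed level of 7 granulocyte markers ran from 1.15 to 3.23 CPM in YFP+CD45+ and from 0.450 to 1.30 CPM in YFP+ libraries, and 6 of the 7 stayed under 1 CPM in every library. The 7 markers of T and NK cells summed to 1.73 to 4.42 CPM, against 1.64 to 2.50 CPM, and the 6 of red cells and platelets to 2.39 to 3.23 CPM, against 1.91 to 2.68 CPM. The 6 B cell markers summed to 8.07 to 21.6 CPM, against 22.6 to 30.6 CPM in YFP+ libraries, with 4 of the 6 under 1 CPM in every library. The 6 endothelial markers summed to 13.6 to 15.1 CPM, against 13.5 to 16.8 CPM, the 6 epithelial markers to 5.98 to 9.17 CPM, against 4.84 to 5.88 CPM, and the 12 of macrophages and monocytes to 32.9 to 85.98 CPM, against 20.5 to 21.6 CPM. The 20 fibroblast genes, which check the labelled cell type, summed to 34774 to 39490.1 CPM, against 28911 to 31701 CPM. In YFP+CD45+ replicates 1 to 3 Fn1 alone held 25436, 35867 and 33153 CPM. The 19 tested fibroblast genes, Fn1 among them, summed to 39490, 37598 and 34773 CPM there. Their median level relative to the YFP+ mean was -0.47, -3.38 and -3.30 on the log2 scale. The sum therefore does not show that fibroblast genes other than Fn1 kept their level. None of the tested markers of B cells (2), T and NK cells (1), endothelium (2), epithelium (2) or red cells and platelets (1) was called. Without YFP+CD45+ replicate 1, 1 of the B cell and 1 of the epithelial markers was higher, and 1 each of the B cell, epithelial and endothelial markers was lower. Of 12 immediate early genes and 13 mitochondrially encoded transcripts, all tested, none was called over all 7 libraries, and 4 and 1 were lower without replicate 1. Of 14 p53 targets 2 were lower, and of 12 genes tested of the unfolded protein response 1 was lower, and in both lists none passed with the Xist class. Without replicate 1 the counts were 3 and 5 lower. Of all genes tested, 4.13% were lower over all 7 libraries and 13.8% without replicate 1.

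The other days of the same line hold what day 9 lacks, YFP+ libraries of the low Xist class, 1 at day 6 and 1 at day 3. At day 6, YFP+ replicate 4 had 0.507 CPM of Xist. Its Ptprc stood at 3.12 CPM, against 0.094, 0.213 and 0.502 CPM in YFP+ replicates 1 to 3 of that day. Its Ikzf2 stood at 558 CPM, against 116.9, 110.996 and 105.6 CPM in those 3. In that library Pirb stood at 145.6 CPM, against 12.3, 7.997 and 9.54 CPM in the other 3, Mki67 at 12.7 CPM, against 221, 189 and 199 CPM, Oasl2 at 2.79 CPM, against 120.9, 129.5 and 102.2 CPM, and Col1a1 at 335 CPM, against 3181, 3344 and 2775 CPM. High factor, high Pirb and low Mki67, Oasl2 and Col1a1 stood together there, in a single library and with no test. Its Ptprc was above that of YFP+ replicates 1 to 3. It was far below the 179.9 to 306 CPM of the YFP+CD45+ libraries of day 6. The library of day 3, YFP+ replicate 5, differed from that day 6 library. It had 6.20 CPM of Xist, 34.2 CPM of Ptprc and 818 CPM of Ikzf2, where YFP+ replicates 1 to 4 of that day had 0.901, 0.748, 0.507 and 0.499 CPM of Ptprc and 232, 243, 232 and 239 CPM of Ikzf2. Pirb stood at 87.1 CPM, against 9.71, 11.2, 8.87 and 9.91 CPM, Mki67 at 169 CPM, against 242, 268, 245 and 262 CPM, Oasl2 at 27.7 CPM, against 74.2, 71.5, 84.1 and 71.9 CPM, and Col1a1 at 2735 CPM, against 3553, 3449.7, 3779 and 3373 CPM. High factor and high Pirb stood there, too, with more Ptprc than in any other YFP+ library of the same day. Mki67 and Col1a1 were below the other 4 but far above their levels in the day 6 library. In the YFP+CD45+ gate of day 3 the classes were closer: Oasl2 stood at 12.5 and 12.4 CPM in the 2 libraries of the low Xist class (replicates 3 and 4) and at 22.9 and 22.7 CPM in the 2 of the high class. Mki67 was higher in the low class in that gate, at 129.8 and 141.4 CPM in the low class and 72.7 and 76.2 CPM in the high class. The part of the Xist class in these levels was not tested.

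**Figure D3:**
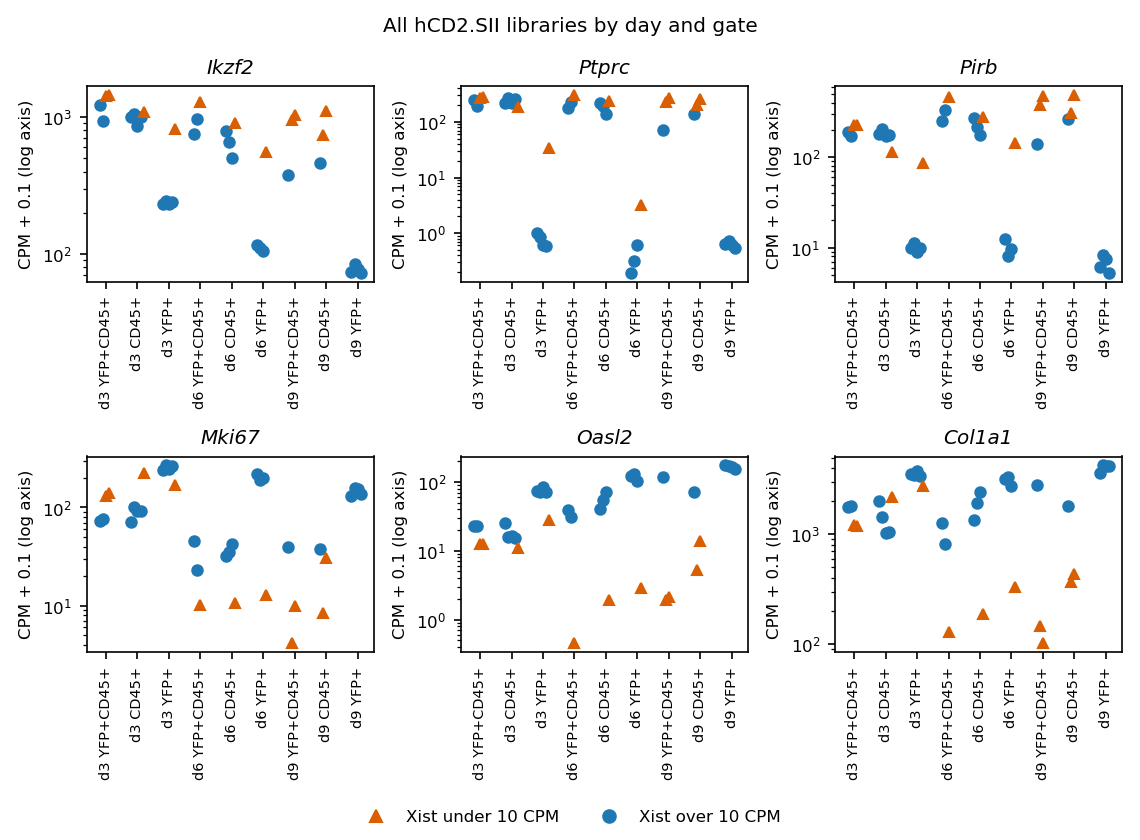
Levels in CPM + 0.1 (log axes) of 6 genes in all 35 hCD2.SII libraries by day and gate, 1 point per library, with triangles for libraries under 10 CPM of Xist and circles for the others. Triangles sit above the circles of their group for Ikzf2 in the YFP+ gate at days 3 and 6, and the lowest levels of Oasl2 and Col1a1 belong to triangles of days 6 and 9.

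To find genes that follow the factor level, log2 levels were fitted on it across the 7 libraries, without the gate. Here 3847 genes had a positive slope (23.8%) and 3733 a negative one (23.1%) at an adjusted p under 0.05, 46.9% of 16173 in all. Adding the Xist class as a term gave 1411 (8.72%) and 1094 (6.76%), 15.5% in all. A slope of 1 means that a gene doubles when the factors double. Ptprc had the steepest positive slope among genes of at least 10 CPM (2.32 ± 0.21), which is no finding because it was the sort marker. The next were 2.22 ± 0.12 for Clec5a, 2.01 ± 0.08 for Pira2 and 1.95 ± 0.11 for Adgrg5, an adhesion G protein-coupled receptor. Adgrg5 stood at 3.08, 32.4 and 33.1 CPM in YFP+CD45+ libraries, against 0.306, 0, 0.518 and 0.225 CPM in YFP+ libraries. The steepest negative slopes were -1.60 ± 0.40 for H19, an imprinted RNA of embryonic tissue, and -1.55 ± 0.41 for Crabp1, a retinoic acid carrier. H19 stood at 110.8, 0.449 and 1.87 CPM, against 366, 374, 399 and 369.6 CPM, and Crabp1 at 85.2, 0.150 and 0.849 CPM, against 289, 252, 317 and 240.0 CPM, both close to 0 in replicates 2 and 3. Because the factor levels of the gates do not overlap, this slope and the gate cannot be told apart. A slope within the gates called 2067 genes positive (12.8%) and 2771 negative (17.1%; in all 29.9%), but it set YFP+CD45+ replicate 1 against replicates 2 and 3. The counts were 8 and 5 without replicate 1. Without it, or with the Xist class, the slope rested on replicate 2 against 3 and on the YFP+ libraries. The factor level hardly varied in the latter (SD 0.024). Few genes could be called there, so such counts cannot show whether genes follow the factors within gates. The same limit holds for the gate at equal factor level. The gate at equal factor level, which extrapolates between gates, called 1441 genes higher (8.91%) and 467 lower (2.89%; in all 11.8%), 1 and 2 with the Xist class and 2 and 3 without replicate 1.

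The 28 hCD2.SII libraries of other days and of the CD45+ gate, none of them among the 7, gave a slope within groups of the same day and gate. It was positive for 2471 genes (13.2%) and negative for 2694 (14.4%) of 18714 (in all 27.6%). Adding the Xist class made it positive for 880 (4.70%) and negative for 425 (2.27%; in all 6.97%). Genes higher with the gate at day 9 were mostly positive there: of 1296 tested in both, 767 (59.2%) had a positive slope and 1 a negative one, where 13.8% of all genes tested in both were positive. They made up 34.6% of those positive genes. With the Xist class in the second fit, 510 (39.4%) were positive, against 5.24% of all. Of 666 lower genes, 516 (77.5%) had a negative slope, against 16.6% of all, and 181 (27.2%), against 2.63%, with the Xist class. They made up 19.3% of the negative genes and 42.7% of those with the Xist class.

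By list, these slopes were positive for 14 of 18 myeloid receptors, 13 of 16 pan-leukocyte genes and 5 of 5 cDC2 markers, and for 11, 10 and 5 of them with the Xist class. Pirb had a slope of 1.43 ± 0.10, and of 1.84 ± 0.14 with the Xist class, Cfp of 1.76 ± 0.11 and 1.77 ± 0.18, and Vav1 of 1.65 ± 0.10 and 1.87 ± 0.16. Negative slopes fell on 19 of 20 S phase genes and 19 of 20 of G2 and M phase, and on 14 and 11 with the Xist class; Top2a had a slope of -0.89 ± 0.21 and -1.16 ± 0.32. For 28 interferon-stimulated genes, 20 slopes were negative without the Xist class and none with it, and for 19 fibroblast genes 13 were negative and 1 positive without it, and none negative and 1 positive with it. Oasl2 had a slope of -1.56 ± 0.36 and -0.56 ± 0.50 with the Xist class, and Col1a1 of -0.93 ± 0.29 and -0.45 ± 0.44, and neither passed the test with the Xist class. Leaving out day 6 YFP+ replicate 4 took the counts to 1664 positive and 1497 negative genes.

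A second line with the same factors, C9a.SII (fibroblasts homozygous for both Clec9a(Cre/Cre) and Rosa26 (tdTomato/tdTomato), in which Cre marks cells that have used Clec9a), gave a CD45 gate at day 9 with a smaller difference in factor level. The factor level averaged 7.71 ± 0.44 in tdT+CD45+ and 7.21 ± 0.42 in tdT+ libraries (SD, n = 4 each), a difference of 0.50 (two-sided exact permutation p = 0.143; smallest possible 0.0286). Of the single factors, Irf8 differed by 0.55 at that smallest exact p, Spib by 0.59 (exact p = 0.2) and Ikzf2 by 0.37 (exact p = 0.286). In CPM of the library total the groups overlapped for Irf8, with tdT+CD45+ replicate 3 at 156.9 and tdT+ replicate 2 at 160.99 CPM. Its smallest exact p therefore depends on the scaling. All 8 libraries were over 10 CPM of Xist. Ptprc averaged 144.02 ± 24.6 CPM in tdT+CD45+ and 3.04 ± 0.747 CPM in tdT+ libraries (SD, n = 4 each). There, 18 genes were higher (0.115%) and 5 lower (0.0321%) of 15586 (0.148%), against 12.2% for the hCD2.SII gate. In simulated data 76.3% of genes with a 4-fold change and 28.3% of those with a 2-fold change were called in this comparison of 15329 genes, and 84.8% and 30.3% in the hCD2.SII one of 15860. The simulation drew each gene on its own and so held no shift that many genes of 1 library share. Whether the simulated spread matches that between the real libraries was not tested. These shares therefore cannot weigh the counts of the 2 lines against each other. Of the 1245 genes higher in hCD2.SII and tested in both lines, 9 were called higher in C9a.SII, where 16 of the genes tested in both were higher in all (the background of 0.115% is over all genes of C9a.SII), and of 584 lower ones 1 was called lower. Genes called there, named after their values were seen, included Itgam at 86.2 ± 25.2 CPM in tdT+CD45+ and 22.5 ± 3.48 CPM in tdT+ libraries (log2 fold change 2.00 ± 0.17, adjusted p = 0.000929), Itgb2, its partner chain (log2 fold change 1.40 ± 0.16, adjusted p = 0.00902), Myo1f (log2 fold change 1.71 ± 0.20, adjusted p = 0.00902), Cd86, a costimulatory ligand (log2 fold change 2.01 ± 0.28, adjusted p = 0.0189), and Il10ra, a receptor chain for interleukin 10 (log2 fold change 1.73 ± 0.24, adjusted p = 0.0184).

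Pirb was high in both gates of C9a.SII. Pirb averaged 213 ± 29.3 CPM in tdT+CD45+ and 135.2 ± 13.3 CPM in tdT+ libraries, a log2 fold change of 0.73 ± 0.11, adjusted p = 0.0282, under the 2-fold limit of a call, against the 5.18 to 8.13 CPM of the YFP+ libraries of hCD2.SII. Ikzf2 averaged 514 ± 81.4 CPM and 426 ± 108.8 CPM in those groups. The interaction of gate and line tests whether the gate difference itself differs, and it called 781 genes higher (4.42%) and 433 lower (2.45%) in hCD2.SII (in all 6.87% of 17680). The same test with the Xist class called 183 genes, 0.713% of those tested higher and 0.322% lower (in all 1.04%). It included 12 of 18 myeloid receptors, all larger in hCD2.SII, or 6 with the Xist class, and 14 of 20 S phase and 11 of 20 G2 and M phase genes, all more negative in hCD2.SII, or 6 and 4 with the Xist class. For Pirb the interaction was 4.88 ± 0.40, adjusted p = 6.82e-05. With the Xist class it was 3.66, where the hCD2.SII gate difference rests on YFP+CD45+ replicate 1 alone. The factors differed in the same way (3 of 3 genes, or 2 with the Xist class), so the line and the factor difference cannot be told apart.

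The gate difference of several contractile genes differed between the lines. In C9a.SII 4 of 13 were higher in tdT+CD45+ than in tdT+ libraries and none lower, and the interaction called 7 of 13 lower in hCD2.SII, and again 7 with the Xist class. Acta2 averaged 430.1 ± 63.5 CPM in tdT+CD45+ and 149.3 ± 30.3 CPM in tdT+ libraries (log2 fold change 1.60 ± 0.15, adjusted p = 0.00294), and Cnn1 14.9 ± 1.06 CPM and 4.50 ± 0.641 CPM (log2 fold change 1.77 ± 0.20, adjusted p = 0.00783). The interaction was -4.31 ± 0.50, adjusted p = 0.000311 for Cnn1, and -5.30 ± 0.57, adjusted p = 0.00027 for Acta1, skeletal actin. With the Xist class, where replicate 1 of YFP+CD45+ stands alone, that of Cnn1 was -3.39. The gate difference of Ptprc, the sort marker, differed by 2.80 ± 0.58, adjusted p = 0.0105 between the lines. With the Xist class it differed by 1.41 and did not pass. C9a.SII tdT+CD45+ replicate 1 held 1146927 counts and 1.98% of them on olfactory and vomeronasal receptor genes, against at most 0.260% in the other 7 C9a.SII libraries, and without it the C9a.SII gate called 27 genes higher and 11 lower.

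**Figure D4:**
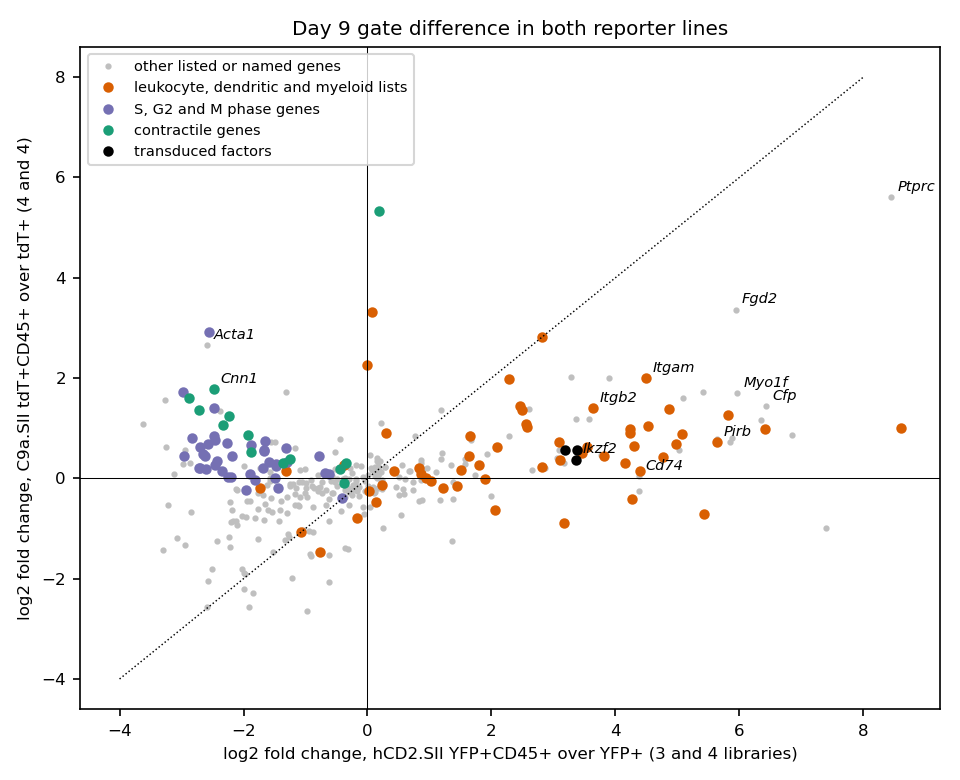
The log2 fold change of the day 9 gate in C9a.SII (vertical axis, 4 and 4 libraries) against that in hCD2.SII (horizontal axis, 3 and 4 libraries), 1 point per listed or named gene tested in both, with the dotted line at equality. Most blood cell genes lie far right and near 0 on the vertical axis, Ptprc lies high in both, and most contractile genes lie left of and above 0.

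Against the same gate at day 3 in hCD2.SII (4 YFP+CD45+ and 5 YFP+ libraries), the day 9 difference was larger for 186 of 17465 genes (1.06%) and smaller or opposite for 0.595% of them (in all 1.66%). Under the Xist term these were 366 (2.10%) and 341 (1.95%; in all 4.05%). Among the myeloid receptors the count was 3 of 18, all larger at day 9. Clec5a had an interaction of 5.69 ± 1.43, adjusted p = 0.045, Fcgr3 of 4.24 ± 0.82, adjusted p = 0.0196 and Cd68 of 1.60 ± 0.37, adjusted p = 0.0288, so each of these receptor or lysosomal genes had a larger gate difference at day 9. Mcm5 had one of -2.04 ± 0.38, adjusted p = 0.0136, a larger fall at day 9. Leaving out a library moved these counts between 50 and 688 larger and between 25 and 1166 smaller, the upper ends without day 9 YFP+CD45+ replicate 1.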

How the data were processed

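The deposited tables hold raw read counts per gene, made by the authors, for 57010 gene identifiers, of which 52029 had a symbol. The submitters' processing notes name STAR 2.7.9a, Salmon 1.10.1 and the mm10 build; the counting tool, annotation release and strand setting are not given in the sources used here. Levels are CPM of the library total. Gene differences were tested with the edgeR 4.0.16 quasi-likelihood test (R 4.3.3; TMM, filterByExpr, robust) and Benjamini-Hochberg adjustment over all genes tested, and errors of log2 fold changes are standard errors. Calls needed an adjusted p under 0.05 and, other than for slopes, at least a 2-fold difference. The factor level used log2 CPM with a prior count of 2, and slopes leave out the 3 factors. Groups came from the sample labels. Scripts were tested on simulated data. DESeq2 1.42.0, other filters, left-out libraries, the replicate number as a block and the Xist class were tried as alternatives. The gene lists and the comparison were chosen with earlier results of these data known. Named genes were the factors and Ptprc, and the genes with the largest changes or slopes at 10 CPM or more. From each list up to 4 called members with the largest changes were named, if their libraries did not overlap between the gates. The largest called change in the other direction and the uncalled member of highest level were added. Genes named outside that rule, such as Tyrobp, Fcer1g, Oasl2, Ddx3y, Itgb2, Cd86 and Il10ra, were chosen after their values were seen. Results for some genes that the rule names are not reported here.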

Additional observations from a re-analysis of the deposited data

Results flagged for a closer look

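The day 9 gate difference was larger in hCD2.SII (YFP+CD45+ over YFP+) than in C9a.SII (tdT+CD45+ over tdT+) by an interaction test (edgeR, adjusted over all genes) for 35 of the genes named in the text, and more negative for 9. The difference between the lines, in log2 units, was 2.78 for Spib, 2.61 for Irf8, 2.96 for Ikzf2 and 2.80 for Ptprc. Among receptors and surface proteins it was 5.93 for Pira2, 4.88 for Pirb, 4.29 for Lilrb4a, 5.37 for Fcgr3, 8.33 for Clec5a, 2.44 for Itgam, 2.19 for Itgb2, 3.80 for Clec12a, 1.84 for Cd86, 3.64 for Il10ra and 5.15 for Adgrg5. Among other genes of blood cells it was 4.96 for Cfp, 4.21 for Myo1f, 4.14 for Vav1, 4.50 for Hcls1, 3.60 for Coro1a, 2.82 for Irf5 and 2.50 for Lyl1. For genes of antigen presentation, lysosome, Toll-like receptors and matrix it was 4.29 for Cd74, 1.40 for Ctss, 2.90 for Tlr9, 1.03 for Unc93b1, 1.74 for Fn1, 2.61 for Ctsh, 2.45 for Cd68 and 1.57 for Psmb9. Among dendritic cell markers it was 4.18 for Klra17, 2.69 for Blnk, 5.78 for Clec9a, 7.43 for Cd209a and 3.42 for Itgax; Cd209a had no count in the YFP+ libraries, so its value depends on the prior count, and Clec9a is the targeted locus of C9a.SII, at 0.129 CPM in tdT+CD45+ and 0.109 CPM in tdT+ libraries, so the line and the genotype cannot be told apart for it. More negative in hCD2.SII were genes of proliferation, sterol synthesis and contraction, with -4.31 for Cnn1, -5.30 for Acta1, -4.72 for Mki67, -3.47 for Top2a, -2.98 for Mcm5, -3.90 for Nuf2, -1.40 for Idi1, -1.51 for Cyp51 and -4.10 for Tagln. For Mki67, C9a.SII tdT+CD45+ replicates 1 to 4 stood at 186.6, 27.7, 24.7 and 24.3 CPM. The tdT+ libraries stood at 31.05, 12.8, 16.8 and 22.4 CPM. The value of Mki67 thus leans on tdT+CD45+ replicate 1, the library with 1146927 counts. With the Xist class as a term 22 of these 44 differences were called. The other 22, all with the same sign, were not called: Spib, Ptprc, Pira2, Fcgr3, Hcls1, Coro1a, Itgam, Itgb2, Ctss, Unc93b1, Blnk, Clec9a, Itgax, Mki67, Top2a, Idi1, Cyp51, Cd68, Cd86, Il10ra, Adgrg5 and Psmb9. Of these Unc93b1 missed the call by the 2-fold limit only. The factor level itself differed in the same direction, and its part was not tested.

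The gate difference in hCD2.SII at day 9 differed from that at day 3 by the same kind of test, by 4.24 for Fcgr3, 5.69 for Clec5a, 3.19 for Blnk, 1.14 for Fn1, -2.04 for Mcm5 and 1.60 for Cd68 in log2 units. In the 4 YFP+ libraries of day 9, 1 library stood away from the other 3 for 5 named genes. Its gap as a share of the group's range was 0.835 for Fcgr3, 0.875 for Blnk, 0.873 for Col1a1, 0.857 for Cyp51 and 0.855 for Ccl11. Chance puts about 1 in 20 such groups past this limit.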

How the results depend on the processing

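Leaving out each library in turn moved the number of genes called by the day 9 gate between 1142 and 4934, that is 826 to 2571 higher and 316 to 2363 lower, with the lowest values without YFP+CD45+ replicate 2 and the highest without replicate 1. Of the 1974 genes, 1938 (98.2%) were also called without replicate 1. The same gave 5528 to 9793 slopes over the 7 libraries, 13 to 4866 within gates, 5 to 2151 for the gate at equal factor level and 3161 to 5596 for slopes in the other libraries. It gave 80 to 1854 for day 9 against day 3, 526 to 3232 between the lines and 5 to 38 in C9a.SII. The factor level difference ran from 2.90 to 3.59, with Spib at 2.88 to 3.67, Irf8 at 2.83 to 3.45 and Ikzf2 at 2.97 to 3.65.

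With the Xist class as a term, chosen after seeing the data, the gate called 867 genes, slopes over the 7 libraries 2505, slopes within gates 3, the gate at equal factor level 3, slopes in the other libraries 1305, the days 707 and the lines 183. Under that term the slope over the 7 libraries turned to -0.055 for Ddx3y and 0.059 for B2m, and that in the other libraries to 0.51 for Xist and -0.25 for Ddx3y. Leaving out 1 library took the slope of Klra17 in the other libraries between -0.035 (without day 6 YFP+ replicate 4) and 0.93. The replicate number as a block gave 659 genes for the gate, 2258 within gates, 973 at equal factor level, 394 for the days and 6 in C9a.SII. Same-numbered libraries did not deviate together (correlations -0.0642, -0.0034 and -0.0755), so the number is not taken as a pairing. Without a filter on low counts the gate called 2785 genes, slopes within gates 5641, the gate at equal factor level 2923, slopes in the other libraries 3389 and C9a.SII 203. The DESeq2 Wald test called 2431 genes, the gate without a fold threshold 4570, and among genes of at least 10 CPM in one gate 1073. The cause of these moves was not tested. A correlation of factor level with Ptprc, and its alternatives, were not run because the libraries fall into separate clusters.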
